A study of Mus musculus with 34 samples.

Results

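Chemokine receptors are the guidance receptors of dendritic cells (DCs), and 9 of them were followed across mouse spleen DCs lacking different kinases. The 9 genes, Ccr7, Xcr1, Ccr2, Ccr6, Cx3cr1, Cxcr3, Cxcr4, Cxcr5 and Ccr1, were taken by name, through array probe sets annotated to a single gene symbol, out of 22180 genes measured that way. Each of the 9 had 1 such probe set. Chemokine receptors are G protein-coupled receptors of the cell surface: a chemokine bound outside activates an inhibitory G protein inside, and the cell moves up the chemokine's gradient. In the spleen they place DCs in the marginal zone, the T cell zone or the edge of the B cell follicle, and a DC changes its set of receptors as it matures. The CD8+ and CD8- DCs of mouse spleen differ in position and in the T cells they prime best.

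RNA of DCs sorted from the spleens of C57BL/6 mice was measured on 34 one-colour arrays. The sorted subsets gave 4 arrays each of Mst1/2-KO CD8+, WT CD8+, Mst1/2-KO CD8- and WT CD8- DCs, and unseparated DCs gave 3 Mst1/2-KO and 4 WT total DC arrays. Mst1 and Mst2, which are kinases of the Hippo pathway, are encoded by Stk4 and Stk3, and both are labelled as deleted in the Mst1/2-KO mice. A separate experiment compared 3 arrays of Rag1-KO p38-KO DCs with 4 of Rag1-KO DCs, all stimulated with anti-CD40, an antibody that triggers the activating receptor CD40. Both groups of it carry the Rag1 deletion, which leaves a mouse without mature B and T cells. A further experiment held 2 arrays of anti-CD40-stimulated Rag1-KO DCs, 1 of anti-CD40-stimulated WT DCs and 1 of non-stimulated Rag1-KO DCs. The labels name no Cre driver, age or dose and give no answer on whether arrays within a group are different mice or repeats, so p-values measure the spread between arrays, whose small number limits the precision.

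All values are log2 signals, so a difference of 1 is a doubling, and levels are compared for 1 gene at a time and within 1 experiment only. The array medians lay between 4.11 and 4.20. Stk4 averaged 7.47 ± 0.21 in Mst1/2-KO CD8+ and 8.33 ± 0.09 in WT CD8+ DCs (SD, n = 4 each), 7.55 ± 0.13 in Mst1/2-KO CD8- and 8.32 ± 0.13 in WT CD8- DCs (SD, n = 4 each), and 7.41 ± 0.09 (SD, n = 3) in Mst1/2-KO total and 8.51 ± 0.06 (SD, n = 4) in WT total DCs, lower in all 3 comparisons (adjusted p at most 0.00154, limma). Stk3 and Rag1 are not reported here. Mapk14, which encodes p38α, averaged 8.47 ± 0.08 (SD, n = 3) in the arrays labelled Rag1-KO p38-KO and 8.24 ± 0.26 (SD, n = 4) in the Rag1-KO arrays, so its mean was not lower there (adjusted p = 0.657, limma). The labels do not say which p38 gene or which exons were deleted, and a probe set outside the deleted part would not check the label, so the groups of that experiment are given by their labels. In WT cells the 8 measured markers of CD8+ DCs were all higher in the CD8+ subset, and the 7 measured markers of CD8- DCs were all lower there. The mean level of 5 markers of all DCs lay between 10.28 and 10.48 on the arrays of the sorted and total DCs.

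The receptor repertoire differed strongly between the subsets. In WT mice Xcr1 and Cxcr3 were higher in CD8+ than in CD8- DCs, and Ccr2, Ccr6, Cx3cr1, Cxcr4 and Ccr1 were lower. That makes 7 of 9 receptors called at an adjusted p under 0.05 in the fit without pairing of the arrays. Of all genes tested, 21.0% were called in this comparison. Ccr7 missed the threshold without pairing and passed it with the replicate number as a block (adjusted p = 0.000167, limma). Cxcr5 was called in neither fit.

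Xcr1, the receptor for the chemokine XCL1 of activated T cells and NK cells and a hallmark of the CD8+ subset, read 11.48, 11.45, 11.60 and 11.62 in WT CD8+ DCs, against 7.20, 6.91, 7.05 and 7.79 in WT CD8- DCs. No CD8+ array came near a CD8- array. The difference of 4.30 ± 0.14 (SE) is a 19.7-fold higher level (adjusted p = 9.76e-13). Cxcr3, the receptor for the interferon-induced chemokines CXCL9 and CXCL10, was likewise separate, with 7.44 to 8.10 in WT CD8+ and 6.15 to 6.42 in WT CD8- DCs, a difference of 1.60 ± 0.16 (SE; adjusted p = 5.79e-07).

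Among the receptors lower in CD8+ DCs, Cx3cr1, the receptor for the membrane-bound chemokine CX3CL1 on monocytes and DC precursors, read 6.22, 5.92, 6.33 and 6.57 in WT CD8+ DCs, against 9.49, 8.81, 9.05 and 9.31 in WT CD8- DCs. It was 7.47-fold lower (log2 difference -2.90 ± 0.16 SE, adjusted p = 2.92e-10). Ccr6, the receptor for CCL20 that guides cells toward epithelium and follicle edges, read 4.88, 4.92, 4.93 and 4.99 in WT CD8+ DCs, against 7.48, 7.36, 8.66 and 7.83 in WT CD8- DCs. The 4 CD8+ arrays lay close together while the CD8- arrays spread over more than 1 unit, and the groups did not overlap (log2 difference -2.90 ± 0.20 SE, adjusted p = 5.39e-09). Ccr2, which binds CCL2 and lets monocytes leave the bone marrow, was lower by a log2 difference of -1.93 ± 0.26 (SE; adjusted p = 2.09e-05), with 6.38 to 7.74 in WT CD8+ and 8.47 to 9.22 in WT CD8- DCs. Ccr1, a receptor for inflammatory chemokines such as CCL3 and CCL5, differed by -0.81 ± 0.20 (SE; adjusted p = 0.00588).

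Cxcr4, the receptor for CXCL12 that holds cells in the bone marrow, was the call closest to the threshold. It read 10.44, 9.90, 9.55 and 9.63 in WT CD8+ DCs, against 11.13, 10.63, 10.35 and 10.40 in WT CD8- DCs, and the highest CD8+ array overlapped with the CD8- arrays. The difference was -0.75 ± 0.26 (SE; adjusted p = 0.049), and the call was lost in 6 of the 8 fits that each left out 1 array, all but those without WT CD8+ replicate 1 or WT CD8- replicate 3 (adjusted p up to 0.157), and under 2 other settings (adjusted p up to 0.0983). Ccr7, the receptor for CCL19 and CCL21 that takes mature DCs into the T cell zone, read 10.51, 9.73, 10.04 and 9.98 in WT CD8+ DCs, against 11.41, 11.01, 10.63 and 10.70 in WT CD8- DCs. Every CD8+ array was below every CD8- array, with a difference of -0.87 ± 0.30 (SE, adjusted p = 0.0508). Of the 8 fits that each left out 1 array 7 did not call Ccr7 (adjusted p up to 0.15). The exception left out WT CD8+ replicate 1, the highest WT CD8+ array (adjusted p = 0.0323, limma). The same replicate numbers paired the WT subsets, and with the replicate number as a block the adjusted p was 0.000167 for Ccr7 and 5.25e-05 for Cxcr4. Cxcr5, the receptor for the follicle chemokine CXCL13, stayed between 4.45 and 4.73 in WT CD8+ and between 4.66 and 5.01 in WT CD8- DCs (log2 difference -0.26, 95% interval -0.47 to -0.04, adjusted p = 0.0872).

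**Figure D1:**
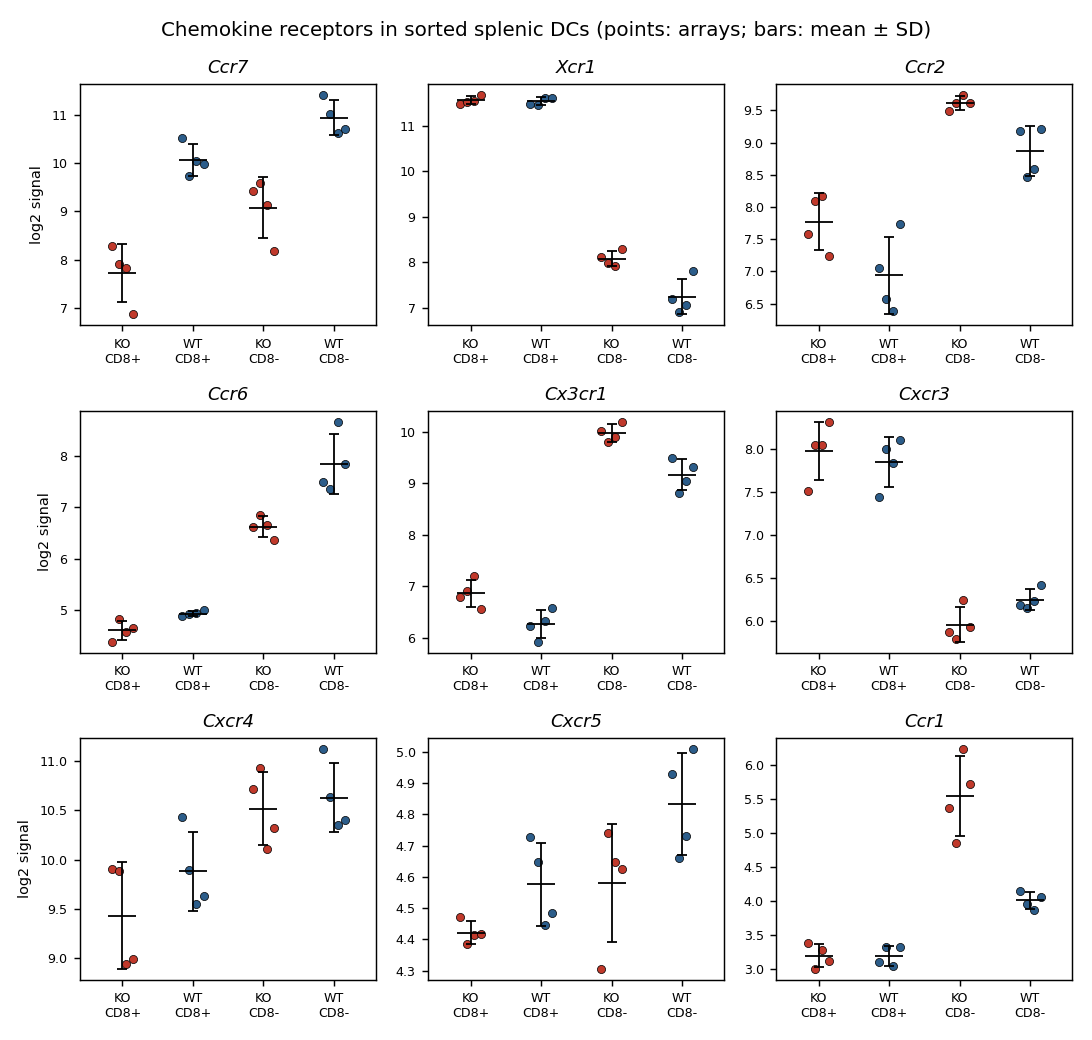
Log2 signal of each receptor (panels, each with its own axis) on the 16 sorted-subset arrays; points are arrays and bars are the mean ± SD of the 4 arrays of a group. Xcr1 and Cxcr3 lie higher in the CD8+ groups, Cx3cr1, Ccr2 and Ccr6 lie lower there, and Ccr7 lies lowest in the Mst1/2-KO CD8+ arrays (6.87 to 8.28).

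Within the Mst1/2-KO mice 8 of 9 receptors differed between the subsets, all but Cxcr5, against 19.2% of all genes (9.93% higher, 9.30% lower). Again Xcr1 and Cxcr3 were higher in CD8+ DCs, by 3.48 ± 0.14 and 2.02 ± 0.16 on the log2 scale (SE). The other 6 were lower, led by Cx3cr1 at -3.11 ± 0.16, Ccr1 at -2.34 ± 0.20 and Ccr6 at -2.01 ± 0.20 (log2 difference, SE; adjusted p at most 6.69e-07). Ccr7 was 2.56-fold lower in Mst1/2-KO CD8+ than in Mst1/2-KO CD8- DCs (adjusted p = 0.00329), although the ranges of 6.87 to 8.28 and 8.17 to 9.59 overlapped.

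**Figure D2:**
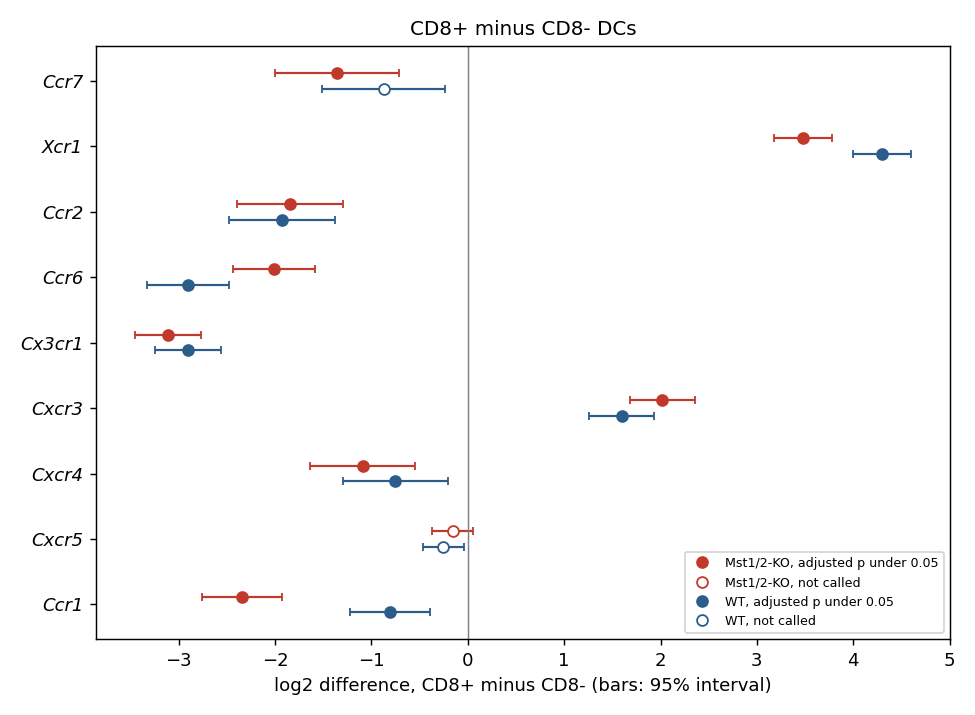
Log2 difference of CD8+ minus CD8- DCs for each receptor, for the Mst1/2-KO and the WT arrays; points are estimates, bars their 95% intervals (limma, 4 arrays per group), and the vertical line marks no difference. Xcr1 stands at 3.48 in Mst1/2-KO and 4.30 in WT mice, while Ccr1 stands at -2.34 in Mst1/2-KO and -0.81 in WT mice.

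Ligands were read beside their receptors. Of 18 listed chemokines that bind a receptor of the set 16 were measured. The CCR7 ligand genes Ccl19 and Ccl21a were the ones not measured, so no ligand of CCR7 was read in any comparison. Of the 16, 5 were higher and 5 lower in WT CD8+ than WT CD8- DCs. The XCR1 ligand Xcl1 was lower by a log2 difference of -3.48 ± 0.30 (SE; adjusted p = 8.99e-08), opposite in direction to Xcr1. The CXCR3 ligand Cxcl9 was higher by 1.98 ± 0.12 (SE; adjusted p = 9.37e-10), the same direction as Cxcr3. Ccl9, a ligand of CCR1, was lower by -2.67 ± 0.25 (SE), the same direction as Ccr1. Ccl7, a ligand of CCR2 and CCR1, was higher by 1.68 ± 0.30 (SE; adjusted p = 0.000337), opposite in direction to both receptors. So was the CCR2 ligand Ccl2, named after its values were seen, at 1.52 ± 0.24 (SE; adjusted p = 9.96e-05). Among 14 other chemokine receptors measured, Ccr4 was higher (log2 difference 0.37 ± 0.10 SE). The atypical receptors Ackr1 (-2.84 ± 0.18) and Ccrl2 (-2.45 ± 0.17), which do not drive migration themselves, were lower (log2 difference, SE). Of 10 other positioning receptors 1 was higher and 4 were lower, among them Gpr183, the oxysterol receptor that guides CD8- DCs (-2.64 ± 0.22, SE). Of 20 signalling genes downstream of the receptors 2 were higher, the arrestin Arrb1 (1.36 ± 0.12) and the G protein regulator Rgs10 (1.19 ± 0.10), and 10 were lower, with Rgs1, which shortens chemokine receptor signals, at -1.07 ± 0.16 (log2 difference, SE).

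Loss of Mst1/2 in CD8+ DCs changed 1 of 9 receptors. Ccr7 was 5.07-fold lower (log2 difference -2.34 ± 0.30 SE, adjusted p = 0.000423), in a comparison that called 0.888% of all genes (0.234% higher, 0.654% lower). It read 8.28, 7.92, 7.83 and 6.87 in Mst1/2-KO CD8+ DCs, against 10.51, 9.73, 10.04 and 9.98 in WT CD8+ DCs. The highest Mst1/2-KO array was more than 1 unit below the lowest WT array. The adjusted p for Ccr7 stayed between 0.000482 and 0.00212 when each of the 8 arrays was left out in turn.

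Cx3cr1 and Ccr2 lay above 0 without a call in the CD8+ subset. Cx3cr1 read 6.79, 6.90, 7.20 and 6.56 in Mst1/2-KO CD8+ DCs, against 6.22, 5.92, 6.33 and 6.57 in WT CD8+ DCs, and the groups overlapped in a single array (log2 difference 0.60 ± 0.16 SE, adjusted p = 0.104). Ccr2 read 7.58, 8.09, 8.18 and 7.25 in Mst1/2-KO CD8+ DCs, against 7.05, 6.58, 6.38 and 7.74 in WT CD8+ DCs. Its difference of 0.84 ± 0.26 (SE) had an adjusted p of 0.188. Of the 8 fits that each left out 1 array 7 made no call (adjusted p up to 0.42). The exception left out WT CD8+ replicate 4, the highest WT array, which raises the difference to 1.10 (adjusted p = 0.0318, limma). Ccr6 was at 4.38 to 4.83 in Mst1/2-KO and 4.88 to 4.99 in WT CD8+ DCs, ranges that did not overlap, but its difference of -0.32 had an adjusted p of 0.63. With Ccr7 that made 2 of 9 receptors without overlap, where 6.33% of all genes showed none.

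For the remaining receptors in CD8+ DCs no difference was called, and the intervals give its possible size. The 95% interval of the log2 difference was -0.28 to 0.32 for Xcr1, -0.42 to 0.41 for Ccr1, -0.21 to 0.47 for Cxcr3, -0.998 to 0.10 for Cxcr4 and -0.37 to 0.06 for Cxcr5. Of the measured ligands, Ccl5 was lower by -2.19 ± 0.15 and Cxcl10 by -1.14 ± 0.19 (log2 difference, SE; adjusted p at most 0.00447). The other 14 were not called, and none of them is a ligand of CCR7. Rgs1 was lower by -0.79 ± 0.16 (SE; adjusted p = 0.0185) as 1 of 20 signalling genes, and neither the 14 other chemokine receptors nor the 10 other positioning receptors held a call. None of the 8 CD8+ DC markers was called in this comparison, and their mean level was 10.87 to 10.96 on Mst1/2-KO arrays and 10.74 to 10.95 on WT arrays. Of the 7 CD8- DC markers Itgam was higher (0.71 ± 0.14 SE, adjusted p = 0.0209), and the other 6 lay below 0 without a call. The list's median difference was -0.34, and its mean level was 5.48 to 5.61 on Mst1/2-KO arrays and 5.61 to 6.00 on WT arrays. Of the 6 neutrophil markers 5 lay above 0 with none called (median difference 0.28), at 4.81 to 6.08 on Mst1/2-KO and 4.97 to 5.72 on WT arrays. The part of these markers in the receptor values was not tested.

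In CD8- DCs the loss of Mst1/2 changed 5 of 9 receptors, 3 upward and 2 downward, where 6.68% of all genes were called (3.90% higher, 2.79% lower). Ccr1, Xcr1 and Cx3cr1 were higher in Mst1/2-KO CD8- DCs, and Ccr7 and Ccr6 were lower. The groups did not overlap for 6 of 9 receptors, these 5 and Ccr2, against 12.0% of all genes. The promoter windows of 4 of the changed receptors are printed here because these genes changed in the same cells, the first 3 upward and Ccr6 downward. They are the 250 bases before the transcription start in RefSeq (GRCm38.p6), written 5′ to 3′ on the gene's strand, and capitals mark matches to the motifs described after them. Xcr1 lies at chr9:123862030-123862279 on the minus strand, Ccr1 at chr9:123968693-123968942 on the minus strand, Cx3cr1 at chr9:120068297-120068546 on the minus strand, and the first start of Ccr6 at chr17:8235793-8236042 on the plus strand.
Xcr1: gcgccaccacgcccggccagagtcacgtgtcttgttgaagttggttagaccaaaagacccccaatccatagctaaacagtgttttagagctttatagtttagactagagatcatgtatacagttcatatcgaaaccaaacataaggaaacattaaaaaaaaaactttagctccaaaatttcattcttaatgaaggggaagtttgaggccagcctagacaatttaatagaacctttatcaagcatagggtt
Ccr1: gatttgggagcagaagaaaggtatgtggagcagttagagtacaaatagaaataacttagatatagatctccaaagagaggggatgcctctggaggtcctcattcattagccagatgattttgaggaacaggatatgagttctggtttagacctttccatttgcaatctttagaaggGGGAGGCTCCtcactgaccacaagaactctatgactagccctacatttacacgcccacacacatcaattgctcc
Cx3cr1: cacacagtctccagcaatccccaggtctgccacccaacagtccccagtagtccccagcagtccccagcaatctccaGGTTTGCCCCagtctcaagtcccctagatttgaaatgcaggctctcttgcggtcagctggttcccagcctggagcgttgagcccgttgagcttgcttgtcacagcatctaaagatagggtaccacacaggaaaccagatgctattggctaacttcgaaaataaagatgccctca
Ccr6, first start: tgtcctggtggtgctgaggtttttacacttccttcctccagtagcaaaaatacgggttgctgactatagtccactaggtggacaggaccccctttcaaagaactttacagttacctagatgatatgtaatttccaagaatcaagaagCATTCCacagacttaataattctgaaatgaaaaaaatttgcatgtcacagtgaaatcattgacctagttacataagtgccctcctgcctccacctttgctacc

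A second start of Ccr6 is shown only around its match, at chr17:8242436-8242464 on the plus strand.
Ccr6, second start: gcttggcttGGGGAATTCCCagataaaaa
RefSeq promoters were found for 7 of the 9 receptors, 8 promoters in all, and not for Ccr7 and Cxcr5. The windows were searched on both strands for GGAATG, the core bound by the TEAD factors that act with the Hippo pathway's YAP and TAZ, for GGG and CC with 5 bases between, a loose form of the NF-kB site, for GAAA and GAAA with 2 bases between, the core of the interferon response element, and for TGANTCA, the AP-1 site. The TEAD letters were found in the first Ccr6 window only, 103 bases before the start, and in 12.6% of the 32851 mouse promoters of the same length. The loose NF-kB letters were found in Cx3cr1, Ccr1, Ccr6 and Cxcr3 and in 45.8% of all promoters, and the second Ccr6 window holds 2 overlapping matches. The interferon and AP-1 letters were in 0 of the 8 windows and in 2.98% and 6.75% of all promoters. These matches describe letters in a window, not binding.

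Ccr1 had the largest of the 5 changes upward or downward relative to its standard error. It read 5.37, 4.85, 6.23 and 5.72 in Mst1/2-KO CD8- DCs, against 4.15, 3.96, 3.87 and 4.06 in WT CD8- DCs. The Mst1/2-KO arrays spread over more than 1 unit and all stood above the narrow WT range. The level was 2.89-fold higher (log2 difference 1.53 ± 0.20 SE, adjusted p = 0.000181), although Ccr1 was the only receptor of the 9 whose mean over the sorted arrays, 3.99, lay below the median gene's 4.35.

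Xcr1 read 8.11, 7.99, 7.92 and 8.29 in Mst1/2-KO CD8- DCs, against 7.20, 6.91, 7.05 and 7.79 in WT CD8- DCs. All 4 Mst1/2-KO arrays were above the highest WT array (log2 difference 0.84 ± 0.14 SE, adjusted p = 0.00148), yet more than 3 units below any CD8+ array. Cx3cr1 read 10.02, 9.79, 9.90 and 10.19 in Mst1/2-KO CD8- DCs, against 9.49, 8.81, 9.05 and 9.31 in WT CD8- DCs, again without overlap (log2 difference 0.81 ± 0.16 SE, adjusted p = 0.0048). Ccr2 read 9.49, 9.61, 9.75 and 9.62 in Mst1/2-KO CD8- DCs, against 9.19, 8.47, 8.59 and 9.22 in WT CD8- DCs. These groups were separate too, but the difference of 0.75 ± 0.26 (SE) was not called (adjusted p = 0.104).

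Ccr7 read 9.41, 9.59, 9.14 and 8.17 in Mst1/2-KO CD8- DCs, against 11.41, 11.01, 10.63 and 10.70 in WT CD8- DCs. It was 3.63-fold lower (log2 difference -1.86 ± 0.30 SE, adjusted p = 0.0011), and the highest Mst1/2-KO array lay a full unit below the lowest WT array. Ccr6 read 6.61, 6.85, 6.64 and 6.36 in Mst1/2-KO CD8- DCs, against 7.48, 7.36, 8.66 and 7.83 in WT CD8- DCs. The highest Mst1/2-KO array was below the lowest WT array, and the level was 2.33-fold lower (log2 difference -1.22 ± 0.20 SE, adjusted p = 0.00123). No call was made for Cxcr3 (95% interval -0.63 to 0.05), Cxcr4 (-0.66 to 0.44) or Cxcr5 (-0.46 to -0.04).

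Markers of other cells moved beside these receptors in the CD8- subset. Of the 8 CD8+ DC markers 4 were higher, with a mean level of 8.28 to 8.72 on Mst1/2-KO arrays and 7.88 to 8.37 on WT arrays, and of the 6 plasmacytoid DC markers 3 were higher (7.89 to 8.35 on Mst1/2-KO and 7.36 to 7.90 on WT arrays). Of the 7 CD8- DC markers 4 were lower and 1 was higher (8.50 to 8.90 on Mst1/2-KO and 9.45 to 9.61 on WT arrays). Of the 6 B cell markers, cells that carry Ccr6, Ccr7 and Cxcr5, 2 were lower (4.82 to 5.05 on Mst1/2-KO and 5.16 to 5.46 on WT arrays). Of the 8 monocyte and macrophage markers, cells that carry Ccr2, Cx3cr1 and Ccr1, 1 was higher and 1 lower (8.56 to 8.93 on Mst1/2-KO and 8.37 to 8.71 on WT arrays). The log2 differences of these 8 markers ran from -1.05 to 1.94, with a median of 0.05. Of the 6 T cell markers 1 was lower, and none of the 6 NK cell or the 6 neutrophil markers was called. The part of these shifts in the receptor changes was not tested, and in sorted bulk RNA fewer cells of a type and less RNA per cell cannot be told apart.

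**Figure D3:**
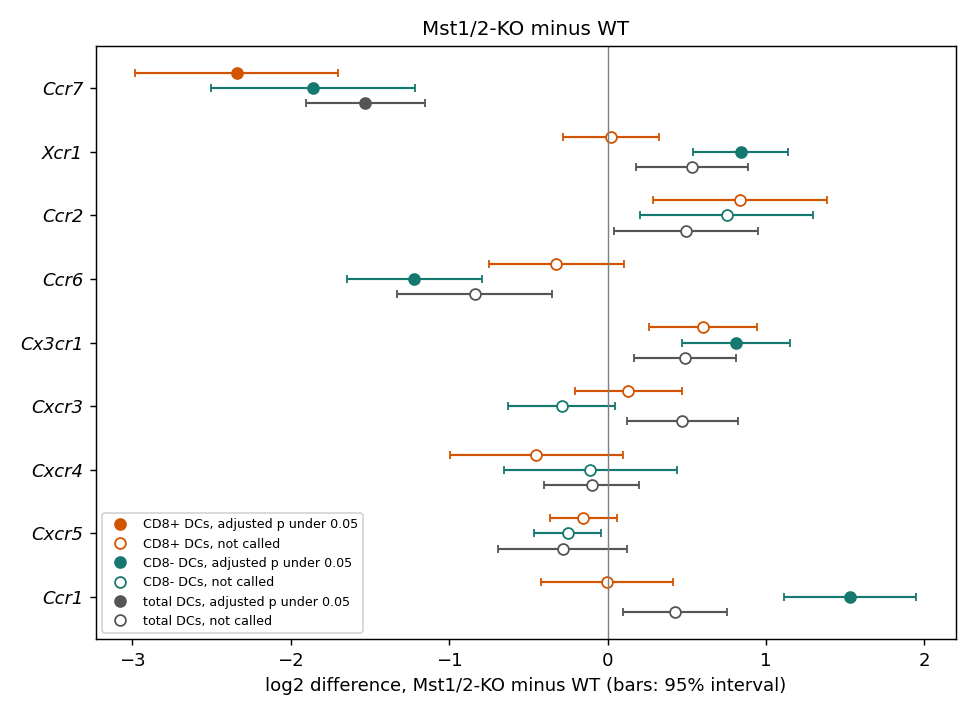
Log2 difference of Mst1/2-KO minus WT for each receptor in CD8+, CD8- and total DCs; points are estimates, bars their 95% intervals (limma), and the line at 0 marks no difference. Ccr7 is below 0 in all 3 populations (-2.34, -1.86 and -1.53), and Ccr1 is at 1.53 in CD8- and 0.00 in CD8+ DCs.

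Other genes of chemokine guidance changed in the same cells. Of the 16 ligands, Ccl5 was lower by -0.99 ± 0.15 and Ccl6, a CCR1 ligand in the mouse, was higher by 0.84 ± 0.17 (log2 difference, SE). The atypical receptors Ackr1 (-0.73 ± 0.18) and Ccrl2 (-0.71 ± 0.17) were lower as 2 of 14 other chemokine receptors. Ltb4r1, the leukotriene B4 receptor, was higher by 1.63 ± 0.13 (SE; adjusted p = 2.94e-06) and the sphingosine phosphate receptor S1pr4 by 0.40 ± 0.11, as 2 of 10 other positioning receptors. Of the 20 signalling genes the receptor kinase Grk6 was higher (0.48 ± 0.10), and Rgs1 (-0.61 ± 0.16), the kinase subunit Pik3cg (-0.36 ± 0.09) and Elmo1, which helps activate Rac (-0.30 ± 0.06), were lower (log2 difference, SE).

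Xcr1, Ccr1 and Ccr2 are neighbours on chromosome 9 in the RefSeq gene order, which runs Ccr9, Fyco1, Cxcr6, Xcr1, Ccr1, Ccr1l1, Ccr3, Ccr2. Of these 8 genes only Xcr1 and Ccr1 were called in CD8- DCs. Between Ccr1 and Ccr2, Ccr1l1 differed by 0.13 ± 0.15 and Ccr3 by -0.35 ± 0.31 (log2 difference, SE; adjusted p = 0.736 and 0.648), and on the other side of Xcr1, Cxcr6 differed by -0.20 ± 0.19 and Ccr9 by -0.09 ± 0.30 (adjusted p = 0.665 and 0.927). In CD8+ DCs none of the 8 was called.

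The genotype effect itself was compared between subsets with an interaction term, which is built from the same 16 arrays. Ccr1 was the 1 receptor of 9 called, against 0.559% of all genes: its effect in CD8+ minus that in CD8- DCs was -1.54 ± 0.28 (log2, SE; adjusted p = 0.015), and leaving out each of the 16 arrays kept the adjusted p between 0.000634 and 0.0408. Ccr1 read 3.39, 3.01, 3.28 and 3.12 in Mst1/2-KO CD8+ DCs, against 3.10, 3.33, 3.05 and 3.33 in WT CD8+ DCs, so the groups overlapped throughout. These CD8+ values all lay below the median gene's mean of 4.35, and whether they stood above background is not known. Xcr1 had a difference of effects of -0.82 ± 0.20 (SE, adjusted p = 0.0833). Of the 16 fits that each left out 1 array 15 did not call it (adjusted p up to 0.181). The exception left out WT CD8- replicate 4, the highest WT CD8- array, which moves the difference to -1.004 (adjusted p = 0.00248, limma). Ccr6 had 0.89 ± 0.29 (SE; adjusted p = 0.22). For Ccr7 the difference of effects was -0.48 with a 95% interval of -1.39 to 0.43 (adjusted p = 0.82), so neither equal nor unequal effects were shown. Beside Ccr1, the interaction was called for its ligand gene Ccl5 (-1.20 ± 0.22) and for Ltb4r1 (-1.31 ± 0.19; log2, SE).

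The order of the 4 sorted groups varied among the receptors. For Ccr7 it ran from WT CD8- through WT CD8+ and Mst1/2-KO CD8- to Mst1/2-KO CD8+, with an overlap only between the Mst1/2-KO groups. For Ccr6 it ran from WT CD8- through Mst1/2-KO CD8- and WT CD8+ to Mst1/2-KO CD8+, with no overlap between neighbours. Cx3cr1 and Ccr2 shared an order, Mst1/2-KO CD8-, WT CD8-, Mst1/2-KO CD8+ and WT CD8+, and overlapped only between the CD8+ groups. Ccr1 was highest in Mst1/2-KO CD8- DCs, then WT CD8- DCs, with the CD8+ groups indistinguishable by range. Xcr1 and Cxcr3 were highest in the CD8+ groups, which overlapped, and below them the CD8- groups overlapped for Cxcr3 but not for Xcr1. For Cxcr4 and Cxcr5 every neighbouring pair of groups overlapped.

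The genes whose levels over the 16 sorted arrays were most like each receptor's, by Pearson correlation among 10368 genes, are given as a description, since the arrays share 4 groups. Xcr1 was most like Btla (r = 0.995), Fnip2 and Cadm1, an adhesion molecule of CD8+ DCs. Cx3cr1 was most like Il17ra (0.991), Ripor2 and Itgam, the CD11b integrin chain of CD8- DCs. Cxcr3 was most like Tspan33 (0.990), Ccr6 like Pygl (0.985), Ccr1 like Plxdc2 (0.972) and Ccr2 like Lgals9 (0.959). Ccr7 was most like Gadd45b (0.941), Mreg and Mxd1, and Cxcr4 like Mir142 (0.941), Il1b and Zfp36. Cxcr5, with the narrowest range, reached 0.863 with Apbb3.

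In total DCs the loss of Mst1/2 changed 1 of 9 receptors, with 0.848% of all genes called. Ccr7 read 8.35, 8.93 and 8.71 in Mst1/2-KO total DCs, against 10.002, 10.08, 10.55 and 10.16 in WT total DCs. All Mst1/2-KO arrays were at least 1 unit below the WT arrays, and the level was 2.89-fold lower (log2 difference -1.53 ± 0.17 SE, adjusted p = 0.00508). The mix of subsets within total DCs was not measured by the arrays.

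Xcr1 read 9.89, 9.85 and 9.95 in Mst1/2-KO total DCs, against 9.22, 9.81, 9.09 and 9.32 in WT total DCs. Its difference was 0.53 ± 0.16 (SE, adjusted p = 0.172). Of the 7 fits that each left out 1 array 6 made no call (adjusted p up to 0.375). The exception left out WT total replicate 2, the highest WT array, which raises the difference to 0.68 (adjusted p = 0.0343, limma). Ccr2 read 8.51, 8.63 and 8.56 in Mst1/2-KO total DCs, against 8.72, 7.80, 7.87 and 7.90 in WT total DCs. Replicate 1 stood alone among the WT arrays, and over all arrays the difference was 0.50 ± 0.20 (SE, adjusted p = 0.335). Of the 7 fits that each left out 1 array 6 did not call Ccr2 (adjusted p up to 0.531). The exception left out this replicate, singled out from the same values, which raises the difference to 0.71 (adjusted p = 0.0189, limma).

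Ccr6 had 5.84, 4.99 and 5.84 in Mst1/2-KO total DCs, against 6.19, 6.45, 6.22 and 6.72 in WT total DCs (log2 difference -0.84 ± 0.22 SE, adjusted p = 0.123). Cx3cr1 had 8.31 to 8.37 in Mst1/2-KO and 7.45 to 8.08 in WT total DCs (0.49 ± 0.14 SE, adjusted p = 0.173), and Cxcr3 had 7.15 to 7.28 and 6.32 to 6.98 in the same groups (0.47 ± 0.16 SE, adjusted p = 0.22). The groups of 5 receptors, Ccr7, Xcr1, Ccr6, Cx3cr1 and Cxcr3, did not overlap, against 13.8% of all genes, and 4 of these 5 were not called. The 95% intervals of the other receptors were 0.10 to 0.75 for Ccr1, -0.40 to 0.20 for Cxcr4 and -0.69 to 0.12 for Cxcr5. All 8 CD8+ DC markers lay above 0 with none called, at a mean level of 9.74 to 9.79 on Mst1/2-KO and 9.25 to 9.72 on WT arrays, and 1 of 7 CD8- DC markers was lower (6.63 to 7.36 on Mst1/2-KO and 7.56 to 8.04 on WT arrays). Of the 8 monocyte and macrophage markers Adgre1 was lower (-1.47 ± 0.22 SE, adjusted p = 0.0192), and the list's mean level was 7.71 to 8.12 on Mst1/2-KO and 7.89 to 8.24 on WT arrays. Of the 6 plasmacytoid DC markers 5 lay below 0 with none called (median difference -0.57), at 6.86 to 7.95 on Mst1/2-KO and 7.33 to 8.36 on WT arrays. Their part in the receptor values was not tested. Ccrl2 (-0.98 ± 0.12), Ccl5 (-1.49 ± 0.15), Ccl3 (-0.98 ± 0.17) and Rgs1 (-0.62 ± 0.10) were lower (log2 difference, SE), the only calls among the 14 other chemokine receptors, 16 ligands and 20 signalling genes.

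**Figure D4:**
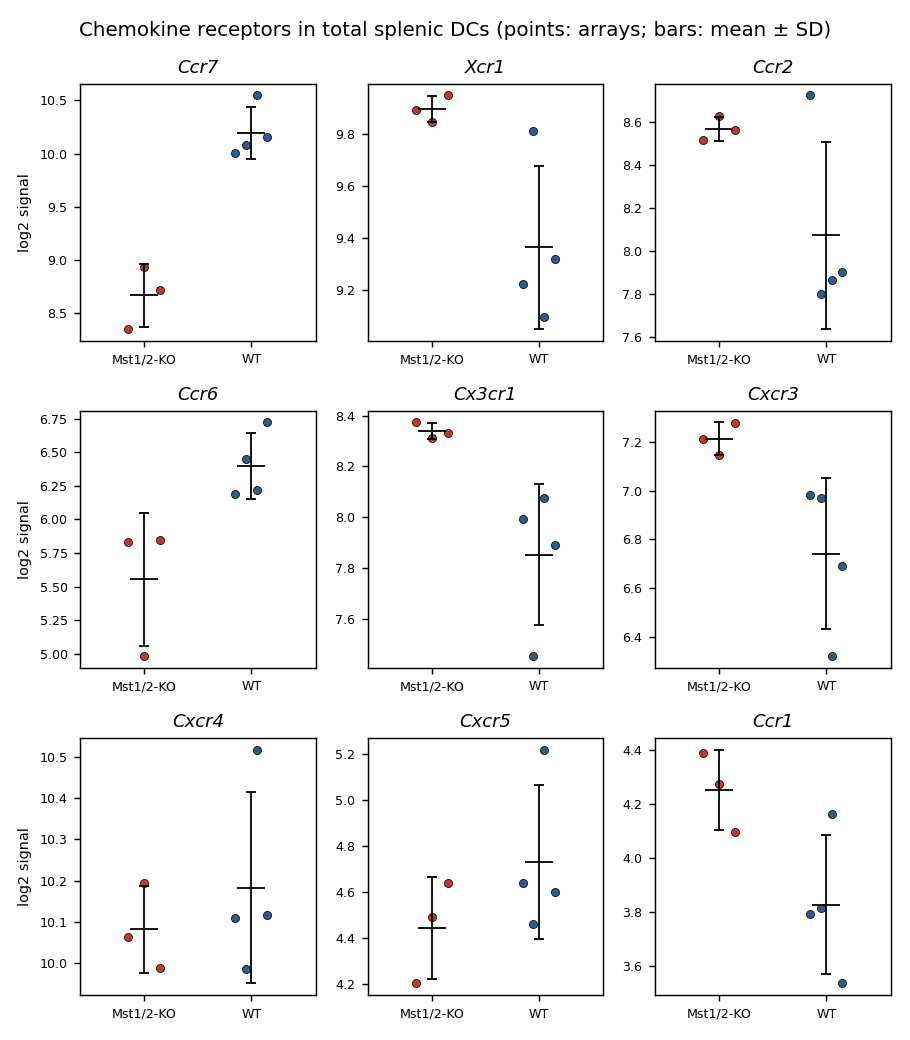
Log2 signal of each receptor (panels, each with its own axis) in total DCs, Mst1/2-KO on the left and WT on the right; points are arrays and bars the mean ± SD of 3 Mst1/2-KO and 4 WT arrays. Ccr7 is lower on every Mst1/2-KO array, and WT replicate 1 stands apart for Ccr2 at 8.72.

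For p38, no receptor and no gene of 22180 was called between Rag1-KO p38-KO and Rag1-KO DCs after anti-CD40 (limma), where 8.41% of all genes (1866) had an unadjusted p under 0.05. Among the receptors 4 of 9 had an unadjusted p under 0.05, and the groups of 3 of 9 did not overlap, against 7.48% of all genes. Ccr7 read 8.68, 8.71 and 9.04 in Rag1-KO p38-KO DCs, against 9.78, 9.72, 10.17 and 10.06 in Rag1-KO DCs. The arrays were well separated, and the log2 difference was -1.12 ± 0.14 (SE, 95% interval -1.46 to -0.78; unadjusted p = 0.000124, adjusted p = 0.19).

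Ccr6 read 5.98, 6.37 and 6.48 in Rag1-KO p38-KO DCs, against 5.94, 5.96, 5.85 and 5.39 in Rag1-KO DCs (log2 difference 0.49 ± 0.18 SE, adjusted p = 0.579), the opposite side of 0 from its Mst1/2-KO values. Cxcr3 differed by 0.48 ± 0.15 (SE; adjusted p = 0.544), with its lowest Rag1-KO p38-KO array level with the highest Rag1-KO array at 7.01. Cxcr5 had 4.23 to 4.56 in Rag1-KO p38-KO and 4.58 to 4.84 in Rag1-KO DCs (-0.30 ± 0.10 SE, adjusted p = 0.556). The 95% intervals of the others were -0.52 to 0.32 for Xcr1, -0.18 to 0.32 for Ccr2, -0.78 to 0.29 for Cx3cr1, -0.24 to 0.66 for Cxcr4 and -0.88 to 0.20 for Ccr1. Beside these values, all 6 neutrophil markers lay below 0 with none called, at a mean level of 4.37 to 5.41 on Rag1-KO p38-KO and 5.74 to 6.77 on Rag1-KO arrays. The 5 markers of all DCs were at 10.32 to 10.49 on Rag1-KO p38-KO and 10.29 to 10.44 on Rag1-KO arrays. The part of the neutrophil markers in the receptor values was not tested.

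**Figure D5:**
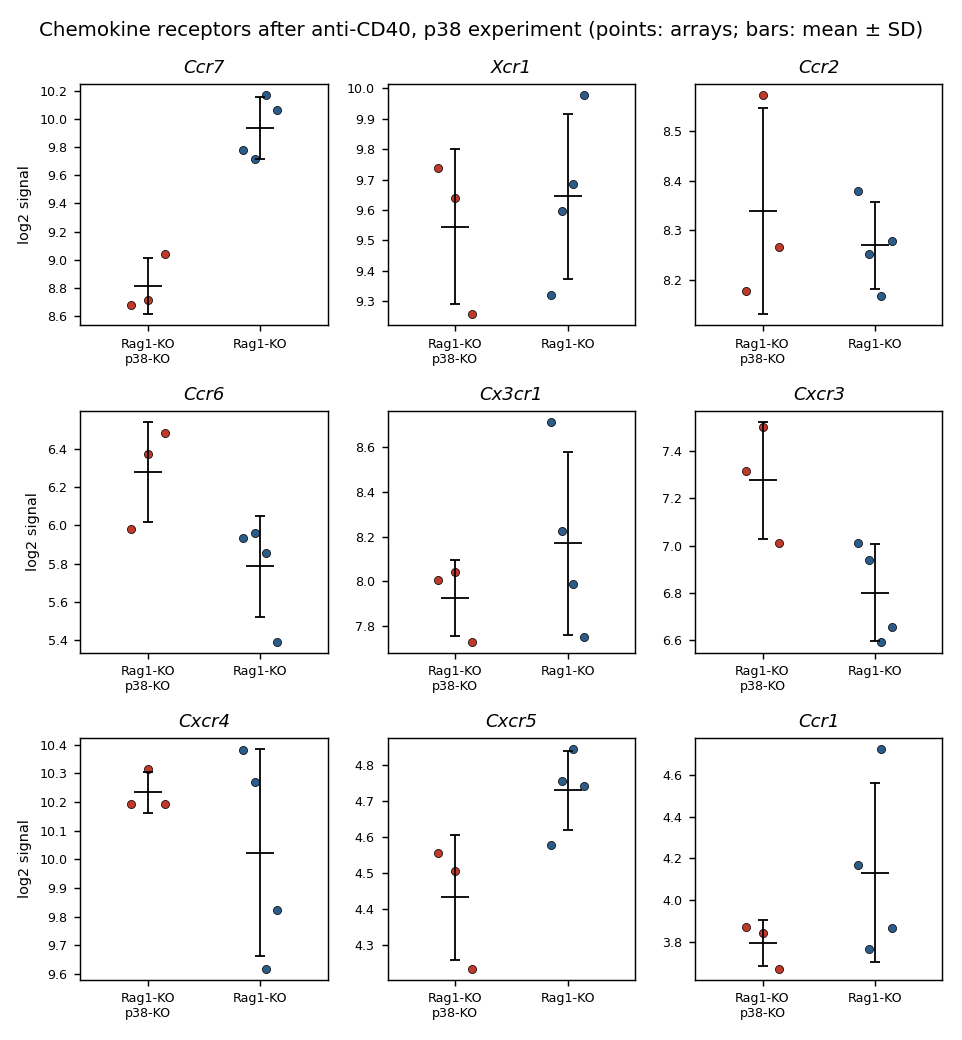
Log2 signal of each receptor (panels, each with its own axis) after anti-CD40, Rag1-KO p38-KO on the left and Rag1-KO on the right; points are arrays and bars the mean ± SD of 3 and 4 arrays. Ccr7 lies at 8.68 to 9.04 in Rag1-KO p38-KO and 9.72 to 10.17 in Rag1-KO DCs, with no gene called in this comparison.

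The last experiment compared single arrays. The 2 anti-CD40-stimulated Rag1-KO arrays were set against the lone non-stimulated Rag1-KO array and against the lone anti-CD40-stimulated WT array, so both comparisons share them. The 11 arrays of both anti-CD40 experiments were fitted together, and the spread comes from the groups with more than 1 array. The lone arrays are assumed to vary like those groups. For anti-CD40 against non-stimulated DCs 0 of 9 receptors were called, with 0.0361% of all genes called. Ccr7 read 9.46 and 9.84 with anti-CD40, against 9.18 without (log2 difference 0.47 ± 0.24 SE, 95% interval -0.08 to 1.01), and Xcr1 read 9.87 and 9.84, against 9.25 (0.61 ± 0.26 SE, unadjusted p = 0.0437, adjusted p = 0.363 by limma), the 1 receptor of 9 with an unadjusted p under 0.05, against 13.1% of all genes. Xcr1 is a gene of CD8+ DCs, and all 8 markers of that subset lay above 0 with none called (median difference 0.21), at a mean level of 9.89 to 9.92 with anti-CD40 and 9.57 without. The markers of CD8- DCs also lay above 0 in 5 of 7, none called (median difference 0.25). Their mean level was 7.26 to 7.43 with anti-CD40 and 7.09 without. The neutrophil markers lay above 0 in 5 of 6, none called, with a mean level of 6.603 to 7.06 with anti-CD40 and 5.72 without. The part of these markers in the receptor values was not tested.

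For Rag1-KO against WT DCs under anti-CD40, 0 of 9 receptors were called, with 0.365% of all genes called, and 5 of 9 receptors had an unadjusted p under 0.05, against 14.0% of all genes (limma). Ccr6 read 5.60 and 5.60 in the Rag1-KO arrays, against 6.71 in the WT array (log2 difference -1.11 ± 0.26 SE, adjusted p = 0.119), and Cxcr5 read 4.22 and 4.48, against 4.97 (-0.63 ± 0.17 SE, adjusted p = 0.158). Cx3cr1 read 7.60 and 7.74, against 8.49 (-0.82 ± 0.32 SE, adjusted p = 0.303). On the other side of 0, Ccr2 read 8.78 and 8.50, against 8.12 (0.52 ± 0.18 SE, adjusted p = 0.246), and Cxcr3 read 7.29 and 7.06, against 6.52 (0.66 ± 0.23 SE, adjusted p = 0.258). Ccr6, Cxcr5 and Ccr7 are also B cell genes. Of 6 B cell markers 3 were lower in the Rag1-KO arrays, at a mean level of 4.23 to 4.29, against 5.28 in the WT array. Of the 6 T cell markers 1 was lower (4.82 to 4.93 in the Rag1-KO arrays, against 5.02 in the WT array). All 6 NK cell markers lay above 0 with none called (median difference 1.47), at 5.58 to 5.82 in the Rag1-KO arrays, against 4.44 in the WT array, and all 6 neutrophil markers likewise (median difference 1.12), at 6.603 to 7.06, against 5.57. All 6 plasmacytoid DC markers lay above 0 with none called (median difference 0.49). The monocyte and macrophage markers did so in 7 of 8, none called (median difference 0.28). The part of these cells in the receptor values was not tested. Ccr7, a B cell gene like Ccr6 and Cxcr5, differed by -0.01, with a 95% interval of -0.55 to 0.54.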

How the data were processed

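Sorted DC RNA was measured on 34 arrays. The deposited values are log2 signals of 41155 probe sets, normalized by the authors with RMA and Partek 6.6, per the submitters' processing notes. Digits beyond the fifth decimal, shared by arrays within an experiment and not across, show that each probe set of the deposited values was shifted by a constant in each experiment, so levels were compared within an experiment only. Probe sets with 1 gene symbol (23521) entered, the one with the highest mean standing for a gene (22180 genes); the array's gene names were updated through RefSeq gene IDs.

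The labels gave the groups. limma 3.58.1 (R 4.3.3) fitted 1 mean per group, with moderated variances. A gene was called where its p-value, adjusted over all genes by the Benjamini-Hochberg method, was under 0.05. The 16 sorted arrays were fitted together, the 7 total DC arrays and the 7 arrays of the p38 experiment each alone, and the 11 arrays stimulated in either anti-CD40 experiment, or serving as its control, together for the contrasts against a single array. The fits were tested on simulated data. The receptors and gene lists were chosen with earlier results of these data known. The text names every receptor and, of the other lists, up to 4 called genes per list and comparison with the largest difference. Deviations from group means correlated between same-numbered arrays of the WT subsets at 0.126 to 0.337, each best with its own number, so these were taken as paired. The main fit stayed without pairing, and values with pairing are printed where the replicate block is named. Arrays of the Mst1/2-KO subsets (0.0926 to 0.2127) and of the p38 experiment (0.0935 to 0.1617) were also each best with their own number. Their lowest correlations missed the cut-off used, so they were not taken as paired, but the replicate block was fitted for them too. Alternatives were other normalizations, filters and priors, the mean of probe sets, fits of 2 groups, a replicate block, and leaving out each array.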

Additional observations from a re-analysis of the deposited data

Results flagged for a closer look

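WT replicate 1 of the total DCs read 8.7231 for Ccr2, apart from the other WT arrays, the nearest of which was at 7.90 and the lowest at 7.80. It was the only array to stand apart in this way in 54 tests, 1 for each receptor in each of the 6 groups of 4 arrays, and chance alone flags about 1 group in 20.

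For Ccr1 the effect of Mst1/2 loss differed between the subsets by an interaction term: -1.5351 on the log2 scale for CD8+ minus CD8- DCs (adjusted p = 0.015, limma). The Mst1/2-KO arrays were higher in 4 of 4 CD8- arrays than every WT array, and the CD8+ groups overlapped. The CD8+ values, 3.01 to 3.39, lay below the median gene's mean of 4.35, and whether they stood above background is not known. Ccr1 is left out where only genes above the median gene are tested.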

How the results depend on the processing

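No called receptor changed sign under any alternative run. The count of called receptors for the interaction was 0 when only genes above the median gene were tested, which leaves out Ccr1, and 2 with the replicate block, which added Xcr1 (adjusted p = 0.0242). Leaving out 1 array gave 1 to 2 called receptors for Mst1/2-KO against WT in CD8+ DCs, 1 to 2 for the interaction, 6 to 8 for the WT subsets and 1 to 2 for total DCs. It gave 5 throughout for CD8- DCs, 8 for the Mst1/2-KO subsets and 0 for the others. Apart from Ccr7 in the WT subsets and Xcr1 in the interaction, the replicate block changed no call. No paired analysis was possible for the comparisons with a lone array because their groups share fewer than 2 numbers. In the WT subsets Cxcr4 was not called with quantile normalization or a trended robust prior, and Ccr7 was called with cyclic loess, with genes above the median gene and in the fit of 2 groups alone. In CD8- DCs that fit also called Ccr2 (adjusted p = 0.0269).

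Signs turned only for uncalled receptors near 0, and the cause was not tested. With quantile normalization Ccr1 in CD8+ DCs was 0.001 and Ccr7 in Rag1-KO against WT was 0.0468 (0.0449 with cyclic loess). With the replicate block Xcr1 in the p38 experiment was 0.0126. Over the fits that left out 1 array the ranges were -0.0662 to 0.0603 for Ccr1, -0.0206 to 0.0487 for Xcr1 and -0.0055 to 0.2875 for Cxcr3 in CD8+ DCs, -0.2460 to 0.0562 for Cxcr4 in CD8- DCs, -0.1008 to 0.3532 for Ccr2 in the interaction and -0.1666 to 0.0106 for Cxcr4 in total DCs. They were -0.0486 to 0.1503 for Ccr2 and -0.2073 to 0.0456 for Xcr1 in the p38 experiment, -0.1549 to 0.1195 for Ccr2 in anti-CD40 against non-stimulated DCs, and -0.1949 to 0.1829 for Ccr7, -0.2762 to 0.1012 for Cxcr4 and -0.1854 to 0.5401 for Ccr1 in Rag1-KO against WT DCs.

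The deposited values give no background per probe set, so it is not known whether Ccr1 and Cxcr5 stood above background. The number of arrays per group limits the calls.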

Other observations

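Cxcr4 was higher on the arrays numbered 1 and 2 than on those numbered 3 and 4 in each of the 4 sorted groups. It read 9.91 and 9.89, against 8.94 and 8.99, in Mst1/2-KO CD8+ DCs, and 10.44 and 9.90, against 9.55 and 9.63, in WT CD8+ DCs. It read 10.72 and 10.93, against 10.10 and 10.32, in Mst1/2-KO CD8- DCs, and 11.13 and 10.63, against 10.35 and 10.40, in WT CD8- DCs. Ccr7 showed the same order in every sorted group except WT CD8+. Deviations from group means correlated with those of Cxcr4 at 0.695 for Ccr7 and at -0.724 for Cxcr3. The labels do not say what the numbers stand for.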
